A study of Aloe vera with 7 samples.

Results

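A set of 8 nuclear genes of the photosynthetic light reactions is described here in leaf and root RNA of Aloe vera, a succulent with crassulacean acid metabolism. They are the minor antenna genes LHCB4.1 and LHCB4.2, the photosystem I genes PSAN and PSAE-1, the photosystem II genes PSBY and PSBW, the gene ATPC1 for the gamma subunit of the plastid ATP synthase, and LPA1, which encodes a photosystem II assembly factor. They were taken by gene symbol from the platform's probe annotation: each of the 8 symbols matched 1 probe set carrying that gene alone, among 11100 such probe sets and 18810 tested. The RNA was hybridised to ATH1 arrays, made for Arabidopsis thaliana, so that each value reports Aloe RNA bound by the probes of the Arabidopsis gene of that name. Of the 7 arrays of the series, 3 held leaf RNA and 3 root RNA, from 250 ng of total RNA each. The remaining array held genomic DNA, and its column in the table used here had 0 values. A single mature plant, bought from a garden centre and kept indoors at room temperature, is described in the labels, and nothing says that replicates came from separate plants. The p-values below therefore measure only the spread between these arrays, which may be technical. In whole organs, fewer cells of a type and less RNA per cell cannot be told apart.

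In chloroplasts, photosystem II takes electrons from water and photosystem I passes them to ferredoxin, while the ATP synthase uses the proton gradient that electron transport builds. Each complex is a mosaic: the plastid genome encodes most core subunits, and nuclear genes encode the antenna proteins, many peripheral subunits and the factors that assemble the whole. Roots in soil hold non-green plastids in place of chloroplasts, and nuclear photosynthesis genes are known for high expression in green leaf tissue of Arabidopsis and other plants.

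The deposited value is a log2 number centred on the median of the probe set over the 6 RNA arrays. It gives differences between arrays and no signal level, and the middle pair of the 6 values always lies at equal distance on either side of 0. No detection call accompanies the values, so a gene may have given no signal above background in either tissue. The rounding of the values left a coarse trace: all 6 values of 7 of the 8 genes (87.5%) fell on the wider spacing that single-precision numbers have at higher values, as did those of 62.1% of all probe sets tested. PSAE-1 was the exception. This trace entered no test.

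LPA1 and LHCB4.1 had the clearest differences, both toward leaf, and the other six differed little between the tissues. LPA1 was 2.99-fold and LHCB4.1 1.66-fold higher in the leaf mean, and the remaining genes differed by 1.22-fold or less in either direction. In limma, 0 of the 8 passed a Benjamini-Hochberg adjusted p of 0.05 over all probe sets in either direction, against 0.276% of all probe sets called higher in leaf and 0.0638% called toward root. With an unadjusted p under 0.05, 2 of the 8 were higher in leaf, against 4.88% of all probe sets, and 0 were higher in root, against 4.68%. The count of 2 was 1 without leaf replicate 3 or with a variance trend and robust fitting, where LHCB4.1 had unadjusted p-values of 0.0518 and 0.0522 in limma. In 1 of the 8, LHCB4.1, the leaf and root arrays were fully separated, with leaf the higher. Over all probe sets, 6.87% had no overlap with leaf higher and 8.27% with root higher. The mean was higher in leaf for 5 of the 8 genes and for 45.5% of all probe sets. The median leaf minus root difference was 0.12 log2 over the 8 and -0.034 log2 over all probe sets. The differences of the 8 ranged from -0.22 to 1.58 log2. Single arrays moved their median: it was 0.00021 log2 without root replicate 2, 0.074 log2 without leaf replicate 3, 0.20 log2 without root replicate 1, 0.21 log2 without root replicate 3 and 0.22 log2 without leaf replicate 2.

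**Figure D1:**
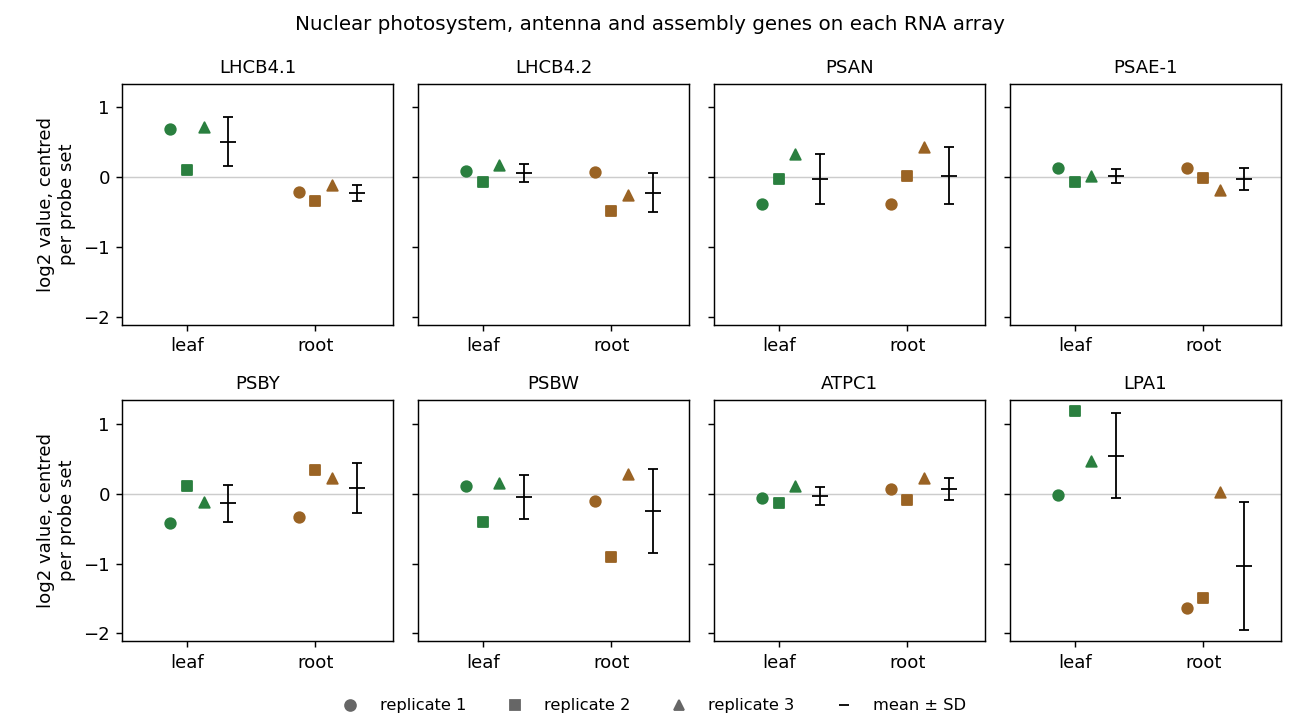
Centred log2 values (vertical axis) of the 8 genes on the 3 leaf and 3 root arrays (horizontal axis), with a marker shape for each replicate number and a bar for the mean ± SD of each tissue. LHCB4.1 shows all leaf values (0.11 to 0.72) above all root values (-0.34 to -0.11), LPA1 has the widest spread, and leaf and root overlap in all genes but LHCB4.1.

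LHCB4.1 and LHCB4.2 encode forms of CP29, a minor antenna protein that joins the major light-harvesting trimers to the core of photosystem II. LHCB4.1 stood at 0.69, 0.11 and 0.72 log2 on leaf arrays 1 to 3, against -0.22, -0.34 and -0.11 log2 on root arrays 1 to 3. All leaf arrays lay above all root arrays, and leaf array 2 came closest to the roots. The means were 0.51 ± 0.35 log2 in leaf and -0.22 ± 0.12 log2 in root (SD, n = 3 arrays each). The leaf minus root difference was 0.73 ± 0.23 log2 (SE) with a 95% interval of 0.19 to 1.27 log2, and the adjusted p in limma was 0.359. It exceeded in size that of 91.9% of all probe sets. With 1 array left out it was lowest, at 0.62 log2, when leaf replicate 3 was left out and highest, at 0.93 log2, when leaf replicate 2 was.

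LHCB4.2 stood at 0.083, -0.073 and 0.17 log2 in leaf, against 0.073, -0.48 and -0.25 log2 in root. Leaf array 2 and root array 1 crossed, so the tissues overlapped. The leaf mean was 0.062 ± 0.13 log2 and the root mean -0.22 ± 0.28 log2. The difference of 0.28 ± 0.22 log2 (SE) had a 95% interval of -0.23 to 0.79 log2 (limma, adjusted p = 0.773). Leaving out root replicate 2 gave 0.15 log2, and leaving out root replicate 1 gave 0.43 log2.

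The values of LHCB4.1 minus those of LHCB4.2 were 0.61, 0.18 and 0.55 log2 on the leaf arrays and -0.29, 0.14 and 0.14 log2 on the root arrays. This contrast between the paralogues was thus higher on every leaf array than on any root array, by 0.45 log2 in the mean. An exact two-sided permutation test gave p = 0.1, the smallest that 3 arrays against 3 allow. A further CP29 gene, LHCB4.3, stood at -0.37, 0.58 and 0.11 log2 in leaf, against -0.062, 0.062 and -0.66 log2 in root. Its difference was 0.33 ± 0.31 log2 (SE), with overlapping tissues (limma, adjusted p = 0.822). It was 0.091 log2 without leaf replicate 2, 0.11 log2 without root replicate 3 and 0.56 log2 without leaf replicate 1.

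PSBY and PSBW encode small membrane proteins of photosystem II. The PSBY precursor is cut into separate small proteins in Arabidopsis, and PsbW helps to hold photosystem II together with its antenna. PSBY stood at -0.42, 0.11 and -0.11 log2 in leaf, against -0.33, 0.34 and 0.22 log2 in root. The mean was -0.14 ± 0.27 log2 in leaf and 0.078 ± 0.36 log2 in root, and array 1 was the lowest in both tissues. The difference of -0.22 ± 0.26 log2 (SE) had a 95% interval of -0.81 to 0.38 log2 (limma, adjusted p = 0.870). It was the most negative of the 8. Without leaf replicate 1, root replicate 2 or root replicate 3 it was -0.078, -0.086 and -0.14 log2, and without leaf replicate 2 or root replicate 1 it was -0.34 and -0.42 log2.

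PSBW stood at 0.11, -0.41 and 0.15 log2 in leaf, against -0.11, -0.91 and 0.28 log2 in root. Array 2 was the lowest in both tissues, and the root arrays spread more widely than the leaf arrays. Means were -0.049 ± 0.31 log2 in leaf and -0.25 ± 0.61 log2 in root. The difference was 0.20 ± 0.33 log2 (SE), with a 95% interval of -0.58 to 0.97 log2 and an adjusted p of 0.918 in limma. It was -0.13 log2 without root replicate 2, the array with the lowest value. Without leaf replicates 1, 2 and 3 in turn it was 0.12, 0.38 and 0.097 log2, and without root replicate 3 it was 0.46 log2.

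LPA1 (low photosystem II accumulation) encodes a thylakoid membrane protein that helps to insert the D1 reaction centre protein during assembly of photosystem II in Arabidopsis. It stood at -0.022, 1.18 and 0.47 log2 in leaf, against -1.63, -1.50 and 0.022 log2 in root. Root arrays 1 and 2 were far below the leaf arrays, while root array 3 lay just above leaf array 1, which made the tissues overlap. The leaf mean was 0.54 ± 0.61 log2 and the root mean -1.04 ± 0.92 log2, the widest spread of the 8 genes. The difference of 1.58 ± 0.49 log2 (SE) had a 95% interval of 0.45 to 2.72 log2 and did not pass in limma (adjusted p = 0.337). In size it exceeded that of 99.1% of all probe sets. Left-out arrays moved it between 1.26 log2 without leaf replicate 2 and 2.11 log2 without root replicate 3, and the adjusted p was between 0.138 and 0.603 over all alternatives.

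PSAN and PSAE-1 encode peripheral subunits of photosystem I. PsaN sits on the lumen side, where plastocyanin delivers electrons, and PsaE on the stroma side, where ferredoxin docks. PSAN stood at -0.39, -0.024 and 0.33 log2 in leaf, against -0.38, 0.024 and 0.43 log2 in root. Arrays of the same number had nearly the same value in both tissues, whereas arrays of different number differed by up to 0.82 log2. The means were -0.029 ± 0.36 log2 in leaf and 0.023 ± 0.40 log2 in root. The difference was -0.052 ± 0.29 log2 (SE), with a 95% interval of -0.71 to 0.61 log2 (limma, adjusted p = 0.980). Without leaf replicate 1 or root replicate 3 it was 0.13 and 0.15 log2, and without leaf replicate 3 or root replicate 1 it was -0.23 and -0.25 log2.

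PSAE-1 varied least, over 0.31 log2 in all. It was also the only gene of the 8 off the wider rounding spacing of higher values, and its signal level is unknown. It stood at 0.13, -0.075 and 0.016 log2 in leaf, against 0.12, -0.016 and -0.18 log2 in root. Leaf and root arrays were interleaved. The leaf mean was 0.023 ± 0.10 log2 and the root mean -0.025 ± 0.16 log2. The difference of 0.048 ± 0.19 log2 (SE) had a 95% interval of -0.40 to 0.50 log2 (limma, adjusted p = 0.971). Without leaf replicate 1 or root replicate 3 it was -0.0045 and -0.032 log2, and without leaf replicate 2 or root replicate 1 it was 0.097 and 0.12 log2.

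ATPC1 encodes the gamma subunit, the rotating central stalk of the plastid ATP synthase and the site of its light-dependent redox control. It stood at -0.060, -0.14 and 0.11 log2 in leaf, against 0.060, -0.092 and 0.23 log2 in root. The tissues overlapped, although root was slightly higher than leaf at each replicate number. Means were -0.028 ± 0.13 log2 in leaf and 0.065 ± 0.16 log2 in root. The difference was -0.093 ± 0.20 log2 (SE), with a 95% interval of -0.55 to 0.37 log2 (limma, adjusted p = 0.938). It was -0.013 log2 without root replicate 3, -0.038 log2 without leaf replicate 2, and -0.17 log2 without either leaf replicate 3 or root replicate 2. In 6 of the 8 genes (75.0%) the 95% interval lay within 1 log2 of 0, near the 63.4% of all probe sets. The small differences above are thus bounded as array values only and are not shown to be 0. Without detection calls, a probe set with no signal above background could give such an interval too.

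**Figure D2:**
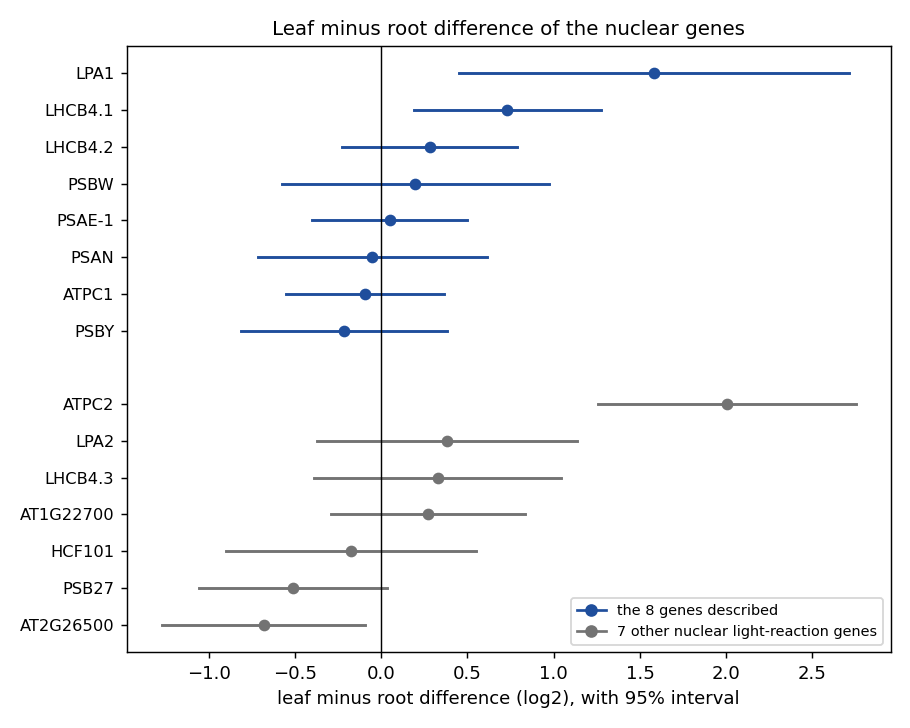
Leaf minus root difference in log2 (horizontal axis) with its 95% interval in limma for the 8 genes and, below them, 7 other nuclear light-reaction genes. The intervals of LPA1, LHCB4.1, ATPC2 and AT2G26500 leave out 0 before adjustment over all probe sets, the last on the root side.

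Leaf and root arrays carry the same replicate numbers, so each gene also gives 3 differences within a number. LHCB4.1 was higher in leaf by 0.91, 0.45 and 0.83 log2 at numbers 1 to 3, LHCB4.2 by 0.010, 0.41 and 0.42 log2, and LPA1 by 1.61, 2.68 and 0.45 log2. These 3 of the 8 genes were higher in leaf at all 3 numbers, which held for 14.8% of all probe sets. PSAN differed by -0.012, -0.047 and -0.098 log2, PSBY by -0.086, -0.23 and -0.34 log2, and ATPC1 by -0.12, -0.047 and -0.11 log2. These 3 genes were higher in root at all 3 numbers, as were 19.5% of all probe sets. PSAE-1 (0.0024, -0.059 and 0.20 log2) and PSBW (0.22, 0.50 and -0.13 log2) had both signs.

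**Figure D3:**
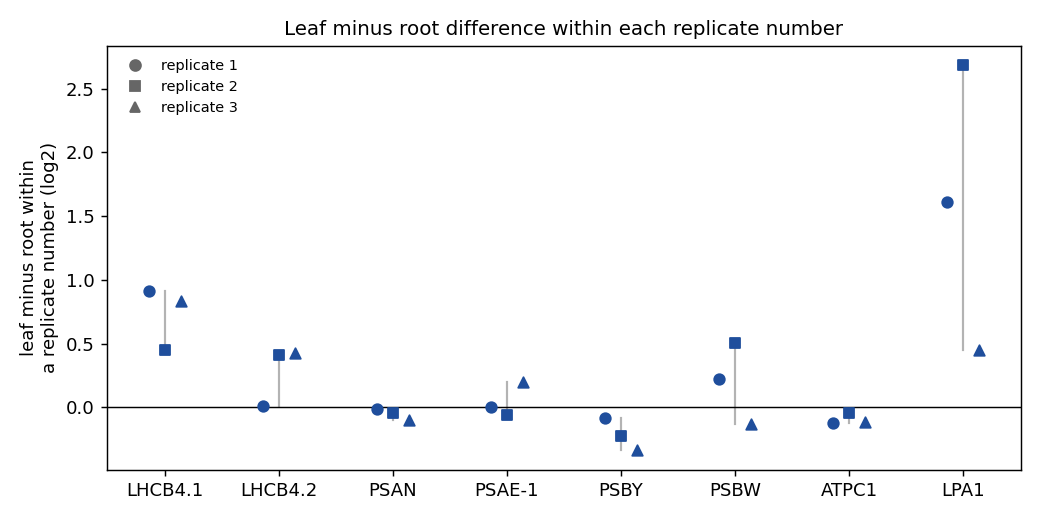
Leaf minus root difference in log2 (vertical axis) within each replicate number for the 8 genes, with a marker shape for each number and a grey line over their range. The differences of PSAN (-0.098 to -0.012) and ATPC1 (-0.12 to -0.047) are the most closely grouped, and those of LPA1 (0.45 to 2.68) the most spread.

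The list of nuclear light-reaction genes held 77 genes, of which 15 matched a probe set of their own, the 8 above among them. In limma 0 of the 15 passed over all probe sets. At an unadjusted p under 0.05, 3 were higher in leaf, against 4.88% of all probe sets, and 1 higher in root, against 4.68%. The median difference over the 15 was 0.20 log2, and it was 0.097 log2 without leaf replicate 2 or 3, 0.098 log2 without root replicate 2, 0.11 log2 without root replicate 3 and 0.13 log2 without leaf replicate 1. The largest was that of ATPC2, which encodes another gamma subunit of the plastid ATP synthase. ATPC2 stood at 1.64, 0.55 and 1.15 log2 in leaf, against -0.86, -0.55 and -1.26 log2 in root, with no overlap. Its difference was 2.01 ± 0.32 log2 (SE, 4.01-fold), with a 95% interval of 1.26 to 2.75 log2 and an adjusted p of 0.0669 in limma. With a variance trend and robust fitting the adjusted p was 0.0218, below the threshold, and its range over the alternatives was 0.0218 to 0.236. ATPC1, the other gamma subunit gene, had its difference near 0.

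AT2G26500, listed with electron transport, stood at -0.82, -0.13 and -0.21 log2 in leaf, against 0.13, 0.55 and 0.21 log2 in root. Root arrays lay above all leaf arrays, with a difference of -0.68 ± 0.25 log2 (SE; limma, adjusted p = 0.444). PSB27, a lumenal protein of photosystem II assembly and repair, differed by -0.51 ± 0.24 log2 (adjusted p = 0.571), with overlapping tissues. Among assembly genes, LPA2, which acts on the CP43 antenna protein, differed by 0.38 ± 0.33 log2, and AT1G22700 by 0.27 ± 0.24 log2. HCF101, which carries iron-sulfur clusters to photosystem I, differed by -0.18 ± 0.31 log2. With 1 array left out, LPA2 ranged from 0.043 to 0.56 log2, with its extremes when root replicates 3 and 2 were dropped. AT1G22700 ranged from 0.13 to 0.43 log2, the lower value when root replicate 2 was dropped and the higher when leaf replicate 3 was, and HCF101 from -0.46 to 0.098 log2, with its extremes when root replicates 1 and 2 were dropped. The adjusted p of these assembly genes in limma was 0.793, 0.804 and 0.923. Of the other low photosystem II accumulation genes, added to the list from the names in the annotation, LPA19 differed by 0.025 ± 0.31 log2 and LPA66 by -0.061 ± 0.22 log2 (adjusted p = 0.991 and 0.966). Among the 4 named LPA genes, values ranged from that of LPA66 to the 1.58 log2 of LPA1.

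Plastid-encoded genes of the same complexes and of the steps between them were measured too. Of 34 plastid-encoded light-reaction genes listed, 29 were measured, and 27 of these had a higher mean in leaf, against 45.5% of all probe sets. The exceptions were psaJ at -0.17 log2 and atpA at -1.16 log2. In limma, 6 were called higher in leaf and 0 toward root, against 0.276% and 0.0638% of all probe sets. The median difference over the 29 was 1.47 log2. The 4 with the smallest p were psbZ, psbH and psbK of photosystem II and atpH of the ATP synthase, which were higher in leaf by 4.76, 4.01, 3.02 and 2.45 log2. The call of atpH was lost without leaf replicate 1, 2 or 3 or root replicate 3, with adjusted p-values of 0.0554 to 0.0849 in limma, and that of psbK without leaf replicate 3 (adjusted p = 0.0741). The count of 6 was 3 without leaf replicate 1 and 2 without leaf replicate 3. Leaf array 2 stood lower than the other leaf arrays. The median value of the 29 genes was 1.05, 0.018 and 0.99 log2 on leaf arrays 1 to 3, against -0.72, -0.69 and -0.29 log2 on root arrays 1 to 3. Without leaf replicate 2 the count was 8 and the median difference 1.95 log2.

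Listed under photosystem II, 12 plastid-encoded genes, psbN among them, had differences of 0.12 to 4.76 log2 and a median of 2.49 log2. PSBY lay below all 12 and PSBW below 11 of them, and PSB27, at -0.51 log2, was below all 12 as well. In the ATP synthase, 6 plastid-encoded genes ranged from -1.16 to 3.16 log2 with a median of 1.3 log2, and ATPC1 lay below 5 of the 6. ATPC2, at 2.01 log2, lay above that median and below 2 of the 6, atpB and atpH. In photosystem I, 4 plastid-encoded genes had a median of only 0.35 log2, with psaB far above the others at 3.30 log2, and PSAN and PSAE-1 each lay below 3 of the 4. The probes were made for Arabidopsis, and no signal levels were given. A probe set that bound little Aloe RNA could also give a small difference, which was not tested.

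The 5 subunit genes among the 8 were each set against the median of the plastid-encoded genes listed for the same complex. This median minus the nuclear gene was compared between leaf and root arrays. The leaf minus root value of this contrast was 2.21 log2 against PSBY, 1.79 log2 against PSBW and 1.38 log2 against ATPC1, with no overlap between tissues. It was 0.49 log2 against PSAN and 0.39 log2 against PSAE-1, with overlap. Exact two-sided permutation tests gave p = 0.1 for PSBY, PSBW and ATPC1, the smallest possible, 0.3 for PSAN and 0.2 for PSAE-1. After Benjamini-Hochberg adjustment over the 5 these exact p-values were 0.167, 0.167, 0.167, 0.3 and 0.25. No outcome of this design could have reached 0.05. Unequal binding of Aloe RNA by the nuclear and plastid probe sets could also enter this contrast and was not tested.

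**Figure D4:**
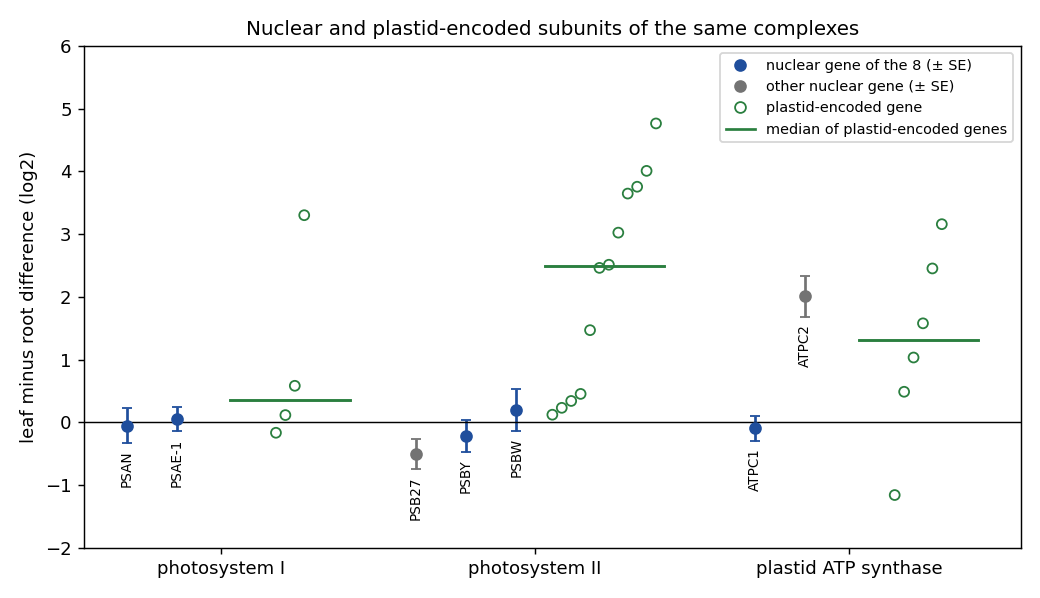
Leaf minus root difference in log2 (vertical axis) of nuclear genes (filled points ± SE, blue for those among the 8) and of plastid-encoded genes (open circles, with their median as a line) in photosystem I, photosystem II and the plastid ATP synthase. The 5 genes in blue lie between -0.22 and 0.20, PSB27 and ATPC2 in grey lie at -0.51 and 2.01, and the plastid-encoded medians are 0.35, 2.49 and 1.3.

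LPA1 had the largest difference of the 8, and its pattern over the 6 arrays was set against the 11099 other single-gene probe sets. The closest was AT5G52890, with a root mean square difference of 0.24 log2 from LPA1, followed by RECQ4B at 0.28 log2 and AT4G02800 at 0.39 log2. The median over all probe sets compared was 1.11 log2. Leaf minus root differences of these 3 were 1.25 ± 0.41, 1.44 ± 0.43 and 1.37 ± 0.38 log2 (SE), and their adjusted p-values in limma were 0.379, 0.322 and 0.281. These values follow from how the genes were chosen and are given as a description.

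The tissue labels had few markers to be checked against. Of 11 leaf mesophyll markers 3 were measured: phosphoribulokinase (PRK) and rubisco activase (RCA) differed by 1.25 ± 0.44 and 0.70 ± 0.29 log2, and sedoheptulose bisphosphatase (SBPASE) by -0.29 ± 0.19 log2. The tissues were fully separated for PRK, with leaf higher, and for SBPASE, with root higher, and overlapped for RCA. Of 8 root hair and epidermis markers 2 were measured, EXPA7 and EXPA18, at -0.084 ± 0.28 and -0.082 ± 0.24 log2. In limma 0 of these 5 passed. Markers listed for root endodermis and stele, root transport, guard cells, shoot epidermis, phloem and xylem had 0 matches. Leaf array 2 stood apart at the control probe set for large-subunit ribosomal RNA, where it read -4.72 log2, while the other RNA arrays read -0.90 to 1.08 log2. At the control for 5S ribosomal RNA it did not stand apart, with -0.13 log2 against -0.14 to 0.069 log2 on the other arrays. Without leaf array 2 the difference of LHCB4.1 was 0.93 log2 and that of LPA1 1.26 log2, with unadjusted p-values of 0.00458 and 0.0432 in limma.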

How the data were processed

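The authors deposited log2 values from RMA (background correction, quantile normalization and probe set summary), named in the submitters' processing notes. The RMA version is not given in the sources used here, and base 2 is assumed as in its usual output. The deposited log2 values had a median within 5e-07 of 0 over the 6 RNA arrays in every probe set, so they had been centred. With no levels, no filter on dim probe sets was possible.

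Of 18874 probe sets, 64 controls were left out. The platform annotation names 1 gene for 11100 of the 18810 tested, several for 350 and none for 7360. Leaf minus root was fitted with limma 3.58.1 (R 4.3.3; lmFit, eBayes) without covariates and adjusted over all 18810. The test was checked in 10 simulations with known differences between leaf and root. It recovered only 15.1% of probe sets when the simulated difference was 2-fold. Recovery rose to 91.8% at 4-fold and reached 99.3% at 8-fold. The simulated noise was normal and independent between arrays, at the fitted spread of each probe set. It held no effect shared by replicate number, so recovery on the real arrays may be lower. LPA1 had a standard error of 0.49 log2, and ATPC2, at 4.01-fold, did not pass (limma, adjusted p = 0.0669). The lack of a pass among the 8 genes therefore says little about differences near 2-fold or below, and larger ones could be missed too. Intervals are 95% and unadjusted. The median standard error was 0.26 log2. Python 3.11.15 and SciPy 1.17.1 gave summaries and exact tests.

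Genes, lists and rules were chosen with earlier results of these data known. All genes of the nuclear list that matched are named, with the 4 plastid-encoded genes of smallest p and the 3 patterns closest to the gene with the largest difference. The annotation's FDH carries an identifier other than that of the epidermal marker and was not counted. No sequences of these genes are printed.

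Deviations from tissue means correlated by 0.12, 0.37 and 0.25 (Pearson, across probe sets) between leaf and root arrays numbered 1, 2 and 3, and by -0.29 to 0.064 between different numbers. The numbers were therefore taken to pair the arrays in the differences within a number and in the replicate block, an assumption from the data. Standard errors, intervals and limma p-values come from the fit without pairing unless a setting is named. The exact permutation tests also left the pairing out. With the replicate block the standard error was 0.19 against 0.29 log2 for PSAN, 0.20 against 0.26 log2 for PSBY and 0.22 against 0.33 log2 for PSBW. For PSAE-1 it was slightly larger, 0.198 against 0.195 log2. Alternatives were the replicate block, quantile normalization, array centring, array weights, a variance trend with robust fitting, probe sets without a shared-sequence suffix and each array left out.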

Additional observations from a re-analysis of the deposited data

How the results depend on the processing

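Of the 96 values recomputed for the 8 genes over 12 alternatives, 0 passed in limma, with a lowest adjusted p of 0.138, and 90 kept their sign. PSAN turned to 0.044 log2 with array weights. With 1 array left out, PSAN lay between -0.25 and 0.15 log2 (positive without leaf replicate 1 or root replicate 3), PSAE-1 between -0.032 and 0.12 log2 (negative without those same arrays), PSBW between -0.13 and 0.46 log2 and HCF101 between -0.46 and 0.098 log2 (both turned without root replicate 2). The cause of these turns was not tested; each turned value was smaller than its standard error. The replicate block changed no call of the 8 genes, with adjusted p-values of 0.249 for LHCB4.1 and 0.207 for LPA1. Over all probe sets, the calls were 52 toward leaf and 12 toward root. A variance trend with robust fitting gave 115 and 40, whose cause was not tested, and leaving out 1 array, on fewer samples, gave 7 to 28 and 0 to 5. The median of the 8 genes lay between 0.00021 and 0.22 log2. That of the 15 nuclear genes was 0.097 to 0.27 log2 with 1 array left out and 0.048 log2 with LPA19 and LPA66 added after seeing the names. For plastid-encoded genes the median was 1.19 to 1.95 log2 and the calls 2 to 8 over all alternatives. The coarse rounding trace held in 7 of the 8 genes at a tolerance 10 times as wide. Arrays number 3 per tissue, and signal over background is unknown.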

Other observations

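The replicate numbers of the lowest and highest arrays were counted after the values had been read. The lowest leaf array and the lowest root array had the same number in 7 of the 8 genes, against 39.9% of all probe sets. For LHCB4.1, LHCB4.2, PSBW and ATPC1 this was number 2, and for PSAN, PSBY and LPA1 it was number 1. The highest arrays had the same number in 6 of the 8, against 42.8% of all probe sets. The SD of the 3 differences within a number was 0.041 log2 for ATPC1 and 0.043 log2 for PSAN, and 1.07% and 1.22% of all probe sets had one as small. It was 1.12 log2 for LPA1, as large as or larger than in 96.9% of probe sets. The cause was not tested.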
